A study of Gallus gallus with 9 samples.

Results

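The SOX, forkhead, T-box, KLF and GATA transcription factors and the HES, ID, NEUROD and NEUROG proteins of the bHLH class were taken from the gene table by their symbols. The rule kept symbols that begin with SOX, with FOX and a letter, with TBX, HES, KLF or GATA and a digit, with NEUROD or NEUROG, or with ID and a single digit, and left out *SOX2*, *SOX10*, *GATA3* and *FOXJ1*. It gave 75 of the 24880 genes, which were 29 FOX, 13 SOX, 10 TBX, 10 KLF, 5 NEUROD or NEUROG, 4 ID, 3 GATA and 1 HES gene. By their names, 70 of them are transcription factors or ID proteins, while 3 rows are exons of the non-coding RNA SOX2OT and 2 are FOXRED oxidoreductases, which carry the same first letters. The RNA came from the basilar papilla, the hearing organ of the bird cochlea, of chickens at post-hatch day 1, cut into an apex, a middle and a base piece. Low frequencies are detected toward the apex and high frequencies toward the base, and the base served as the reference for the apex and the middle. Each region had 3 replicates, and a replicate pooled 8 cochleas of 4 chickens, so each value is that of a pool of whole pieces of tissue with every cell type they held. The labels give neither strain nor sex of the birds.

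SOX proteins bind DNA through an HMG box, forkhead (FOX) proteins through a winged helix, T-box (TBX) proteins through the domain they are named for, and KLF and GATA proteins through zinc fingers. Among the bHLH proteins, HES5 is a repressor that Notch signalling switches on, NEUROD and NEUROG proteins drive cells toward a neuronal fate, and ID proteins lack the basic region, pair with other bHLH proteins and keep them off DNA. In the inner ear, Notch signalling holds supporting cells back from becoming hair cells, and T-box and SOX factors take part in forming the otic epithelium and the mesenchyme around it, as known from mouse and chicken.

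Expression levels are in FPKM, the unit in which the authors deposited them, which scales the fragments of a gene to its transcript length and to all mapped fragments of the library. Values of 3 libraries are listed in the order of replicates 1, 2 and 3. FPKM summed to 660314 to 741975 per library, 12477 to 12779 genes reached 1 FPKM, and so did 50 to 55 of the members. Fragment numbers are not in the table, and the paper gives read pairs per replicate only as a range, not by library. A relative depth, estimated from the step size of the lowest values, spanned 1 to 1.60. No counting interval was computed for the low members, which rest on fewer fragments for their length.

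The dissected pieces also differed in their cell type markers. Summed over 19 hair cell markers, the apex libraries held 2264 to 3090 FPKM and the middle libraries 1633 to 2700 FPKM, against 493 to 958 FPKM in the base libraries, and 13 of the 19 were higher in the apex than the base. Among 9 supporting cell markers, 7 were higher, and their sum was 2564 to 3553 FPKM in the apex and 2213 to 4207 FPKM in the middle, against 999 to 1780 FPKM in the base. Markers of mesenchyme and fibroblasts ran the other way, with 3871 to 4829 FPKM in the apex and 3972 to 5017 FPKM in the middle, against 5277 to 6249 FPKM in the base, and 4 of 12 tested were lower in the apex. Schwann cell and glia markers summed to 2050 to 2892 FPKM in the apex, 1935 to 3103 FPKM in the middle and 1188 to 1457 FPKM in the base (4 of 9 higher). Sums of endothelium and pericyte markers overlapped between the regions, with 417 to 527 FPKM in the apex, 407 to 515 FPKM in the middle and 484 to 550 FPKM in the base. Neuron markers were highest in replicate 2 of each region (412 to 1879 FPKM in the apex, 575 to 3811 FPKM in the middle, 596 to 1304 FPKM in the base, *PRPH* listed at 0), and macrophage and blood markers reached 3852 FPKM in apex replicate 3. In such bulk samples, fewer cells of a type and less RNA per cell cannot be told apart, and the part of these markers in the results on the members was not tested.

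**Figure D1:**
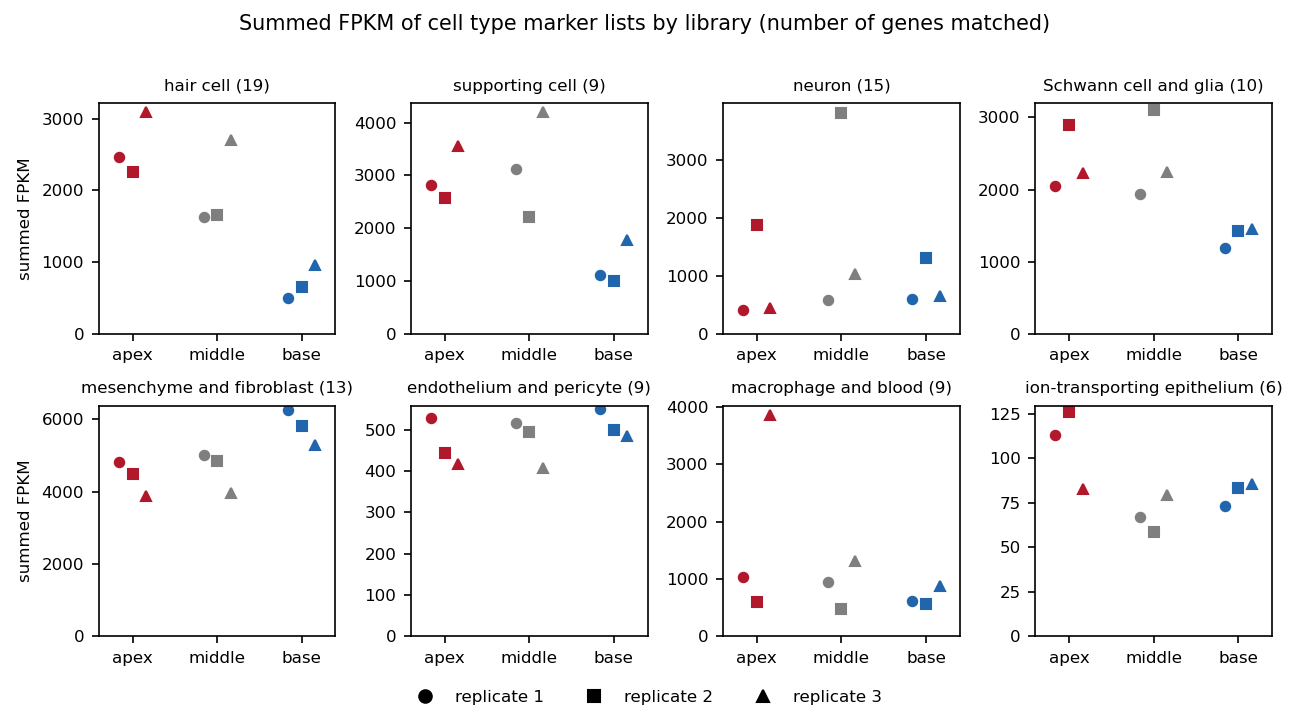
Summed FPKM of the marker genes of 8 cell types (y axis, linear, from 0) in each apex, middle and base library (x axis), where circles, squares and triangles are replicates 1, 2 and 3 and the number of genes is in each title. Every apex library lies above every base library for hair cell, supporting cell and Schwann cell and glia markers, and below every base library for mesenchyme markers.

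Of the 75 members, 55 reached a mean of 1 FPKM in some region and were tested, and 36 had a mean over all libraries of at least 10 FPKM. The 5 members above a mean of 100 FPKM were the bHLH inhibitors *ID2*, *ID3* and *ID4*, the SoxE gene *SOX8* and the T-box gene *TBX18*. Their order differed between the regions, since *ID2* stood highest in the apex with 269 ± 9.5 FPKM and in the middle with 241 ± 46.2 FPKM, and *SOX8* in the base with 289.5 ± 52.3 FPKM (SD, n = 3). In the middle *SOX8*, with 231 ± 36.2 FPKM, was within 1 SD of *ID2*. In the apex *ID4* with 177 ± 28.4 FPKM and *SOX8* with 182 ± 42.8 FPKM were within 1 SD of each other. Of the 20 members that were not tested, 3 were listed at 0 in every library (*FOXB1*, *NEUROG3* and SOX2OT_EXON4), and the other 17 stayed at or under 0.888 FPKM. *FOXF1*, *FOXN4*, *GATA6* and *TBX19* reached a mean of 1 FPKM in the apex alone and so entered the tests through the region where they were high.

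**Figure D2:**
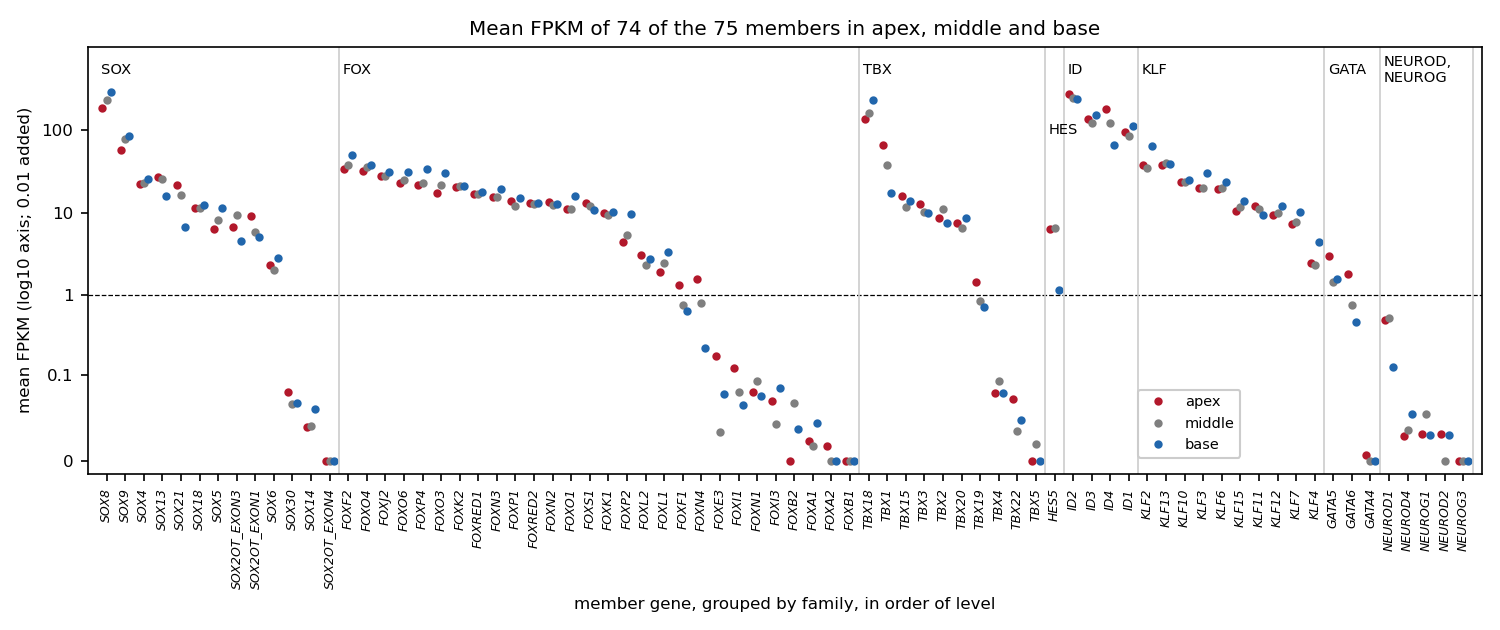
Mean FPKM over 3 replicates (y axis, log10 scale with 0.01 added) of 74 of the 75 members (x axis, by family and level) in the apex (red), the middle (gray) and the base (blue), with a dashed line at 1 FPKM. The ID genes, *SOX8* and *TBX18* lie highest, and all 5 NEUROD and NEUROG genes lie below the line.

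Between apex and base, 10 members were DEGs with higher levels in the apex and 9 with lower levels. A DEG had an adjusted p under 0.05 by limma on log2(FPKM + 1) and mean levels that differed by 1.5-fold or more. The 19 DEGs were 34.5% of the 55 tested, while 11.8% of all 13045 genes tested were DEGs (7.15% higher and 4.66% lower in the apex). Among the higher members were *SOX21*, *SOX13*, *HES5*, *ID4*, *TBX1*, *TBX19*, *FOXN4*, *GATA5* and *GATA6*, and the 9 lower members were *SOX8*, *SOX5*, *TBX18*, *FOXF2*, *FOXO3*, *FOXP2*, *FOXP4*, *KLF2* and *KLF3*. *FOXN4*, *GATA6* and *TBX19* passed the filter through the apex alone, so the higher members include genes selected on a region compared. The share over all genes rests on the same filter. Over the 55 members the median log2 fold change was -0.095, against -0.007 over all genes tested, and the calls in both directions nearly balanced. With the replicate number as a block, 11 members were lower, against 5.49% of all genes. In 15 members every apex library was above every base library (20.7% of all genes tested), and in 20 every apex library was below every base library (22.0% of all genes tested). Leaving out 1 library at a time gave 5 to 10 higher members, with 5 without apex replicate 1 and without apex replicate 3 and 6 without base replicate 1 and without base replicate 2, and 5 to 10 lower members, with 5 without base replicate 3. Of the 19 calls, 10 held in all 9 of these fits.

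**Figure D3:**
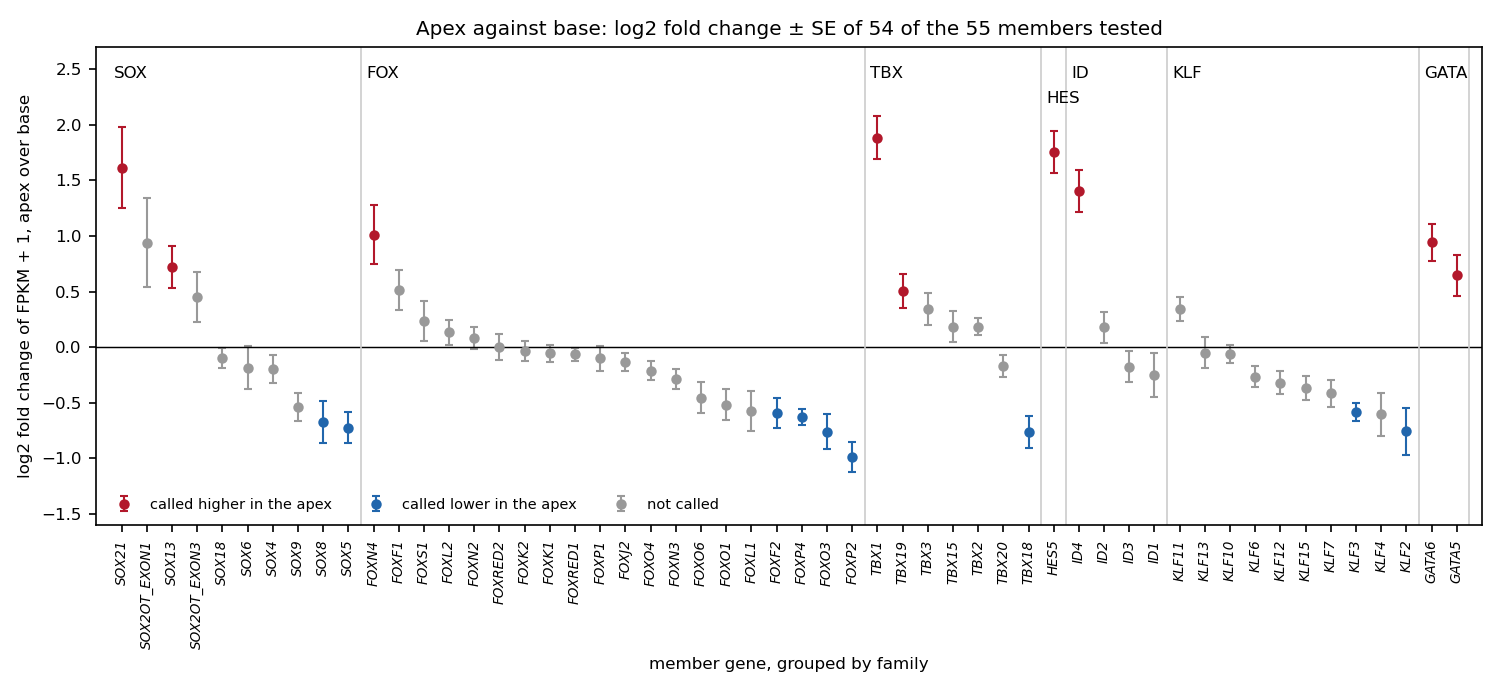
Log2 fold change of FPKM + 1 of apex over base ± SE (y axis) for 54 of the 55 members tested (x axis, by family), with DEGs higher in the apex in red, DEGs lower in the apex in blue and other members in gray. *TBX1* and *HES5* have the largest positive values, *FOXP2* the largest negative one, and every KLF gene but *KLF11* lies below 0.

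*HES5*, the Notch-driven repressor (chromosome 21, 1416932 to 1418581), was the only gene that the rule found for HES and was higher in the apex and the middle. It had 8.17, 5.51 and 5.52 FPKM in the apex and 7.64, 4.74 and 7.02 FPKM in the middle, against 1.10, 0.985 and 1.41 FPKM in the base. Every apex and every middle library lay well above the highest base library, while apex and middle overlapped. On the log2 scale this was 1.76 ± 0.19 (SE) for apex over base (limma, adjusted p = 0.00121) and 1.77 ± 0.19 for middle over base (limma, adjusted p = 0.00665), and both calls held without any 1 library. These are changes of 5.48-fold and 5.54-fold in mean FPKM, larger than on the log2 scale, where the added 1 weighs on so low a gene.

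Genes of the Notch pathway were set beside it. Of 25 tested, 6 were higher in the apex than the base and 0 were lower (7.15% and 4.66% of all genes tested). The median of all 25 log2 fold changes was 0.07. The largest was that of *DNER*, an atypical Notch ligand, with 243 ± 22.9 FPKM in the apex and 70.3 ± 17.8 FPKM in the base (adjusted p = 0.00111). *HEY2* and *HEY1*, repressors of the same bHLH class as HES5, had ratios of 3.08 and 2.04 (adjusted p = 0.00194 and 0.0294). The Notch ligand *JAG2* and the glycosyltransferase *LFNG*, which modifies Notch receptors, had ratios of 1.84 and 1.66 (adjusted p = 0.00167 and 0.00774). *LFNG* and *HEY1* are also on the list of supporting cell markers, which were higher in the apex, as given above.

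*ID4* (chromosome 2, 59931746 to 59933580) stood apart from the other ID genes. Its levels were 198, 145 and 189 FPKM in the apex, 129.6, 88.6 and 147 FPKM in the middle and 61.4, 62.1 and 74.3 FPKM in the base. Neither apex nor middle libraries overlapped those of the base, and the lowest apex library lay just under the highest middle library. Apex over base, the log2 fold change was 1.41 ± 0.19 (limma, adjusted p = 0.00206), and middle over base it was 0.85 ± 0.19 (adjusted p = 0.0331). The first call held without any 1 library, and the second was lost without base replicate 1 or 2, middle replicate 1 or 3, or apex replicate 1 or 3 (adjusted p between 0.0501 and 0.123).

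*ID1*, *ID2* and *ID3*, the other members of the family and known targets of BMP signalling, were not DEGs in any comparison. With the replicate block *ID1* and *ID3* had an adjusted p of 0.00834 and 0.00818 for middle over base, with ratios of 0.746 and 0.810 that stayed inside 1.5-fold (limma), and without the block neither passed the test. *ID2* ranged over 277, 258 and 271 FPKM in the apex, 269, 188 and 267 FPKM in the middle and 259.7, 219 and 235 FPKM in the base. *ID3* averaged 134 ± 17.8 FPKM in the apex and 151 ± 12.4 FPKM in the base, and *ID1* averaged 95.2 ± 19.5 FPKM in the apex and 112 ± 12.7 FPKM in the base (SD, n = 3). The ratio of *ID4* to *ID1* was 1.69, 1.80 and 2.16 in the apex libraries, against 0.483, 0.590 and 0.709 in the base libraries, so that *ID4* was the higher of the pair in the apex and the lower one in the base. No p-value is given for this ratio, since the pair was chosen after the values were seen.

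Of the bHLH activators that ID and HES proteins act against, the NEUROD and NEUROG members were nearly silent in these pieces. *NEUROD1*, a neuronal differentiation factor (chromosome 7, 14310817 to 14312671), was the highest of them with 0.583, 0.471 and 0.441 FPKM in the apex, 0.216, 0.888 and 0.452 FPKM in the middle and 0.0290, 0.209 and 0.148 FPKM in the base, under the limit for testing. Its highest library was middle replicate 2, which was also the highest in neuron markers. *NEUROD4* and *NEUROG1* did not exceed 0.0465 FPKM, *NEUROD2* did not exceed 0.0344 FPKM, and *NEUROG3* was listed at 0. On a list of other bHLH partners and proneural factors, 1 of 12 tested was higher in the apex and 3 were lower (7.15% and 4.66% of all genes tested). The mesenchymal factor *TWIST1*, itself on the mesenchyme marker list, averaged 25.8 ± 3.7 and 50.1 ± 10.5 FPKM in apex and base (adjusted p = 0.00830). *TCF3*, an E protein that ID proteins bind, averaged 72.0 ± 6.1 and 108 ± 8.8 FPKM (adjusted p = 0.00490), and *NHLH1*, a neuronal bHLH factor, averaged 2.28 ± 0.48 and 1.04 ± 0.24 FPKM in the same order (adjusted p = 0.0374).

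Because ID genes respond to BMP ligands, the BMP pathway was examined as well. Of 19 genes tested, 4 were higher and 5 were lower in the apex (7.15% and 4.66% of all genes tested), with a median log2 fold change of -0.24. The ligand genes *BMP7* and *GDF6* had ratios of 3.31 and 2.54 (limma, adjusted p = 0.00435 and 0.0251). The ligand antagonist *FST* averaged 8.21 ± 1.1 FPKM in the apex and 3.73 ± 0.69 FPKM in the base. Lower in the apex were the type I receptor *BMPR1B*, with 17.6 ± 3.2 FPKM in the apex and 42.2 ± 5.2 FPKM in the base, and the antagonist *CHRD*, with a ratio of 0.458 (adjusted p = 0.00153 and 0.00623). The pathway had DEGs in both directions.

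Among the SOX genes, 10 of 13 were tested, and 2 were higher and 2 lower in the apex (7.15% and 4.66% of all genes tested). *SOX21* (chromosome 1, 146418877 to 146419719), a SoxB2 repressor closely related to *SOX2*, had 26.2, 15.7 and 23.0 FPKM in the apex, 15.5, 9.84 and 23.7 FPKM in the middle and 4.85, 4.58 and 10.7 FPKM in the base. All apex libraries exceeded all base libraries, and replicate 3 was the highest library of both middle and base. Apex over base, the log2 fold change was 1.61 ± 0.36 (limma, adjusted p = 0.0153), and middle over base it was 1.18 ± 0.36, which missed the threshold (adjusted p = 0.0801). With the replicate number as a block the middle also passed (adjusted p = 0.00540). Without base replicate 1 or 2 or apex replicate 1 or 3, the call between apex and base was lost (adjusted p between 0.0518 and 0.0627). With the block this call had an adjusted p of 0.000772 (limma) and held in all 3 block fits without a replicate number. *SOX2*, which the rule left out, is on the supporting cell list and averaged 16.9 ± 2.1 FPKM in the apex and 5.43 ± 1.9 FPKM in the base.

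The SoxD genes, which lack an activation domain of their own, differed in direction. *SOX13* (chromosome 26, 1683809 to 1703852) had 28.2, 21.8 and 30.2 FPKM in the apex and 25.4, 19.8 and 30.5 FPKM in the middle, against 14.2, 13.7 and 19.6 FPKM in the base. The 3 base libraries were the lowest, and base replicate 3 came within 1 FPKM of the lowest library of the other regions. Its log2 fold change was 0.72 ± 0.19 for apex over base (limma, adjusted p = 0.0270) and 0.64 ± 0.19 for middle over base (adjusted p = 0.0734, and 0.00172 with the replicate block). The same 4 libraries as for *SOX21* each ended the call between apex and base when left out (adjusted p between 0.0780 and 0.0978). With the block this call had an adjusted p of 0.000414 (limma) and held in all 3 block fits without a replicate number.

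*SOX5* (chromosome 1, 65938356 to 66226982), known together with *SOX6* for its part in cartilage formation, ran opposite to *SOX13*, with 7.16, 5.62 and 6.43 FPKM in the apex, 9.76, 7.37 and 7.58 FPKM in the middle and 13.4, 9.94 and 10.5 FPKM in the base. No library overlapped between any pair of regions. Its log2 fold change of -0.73 ± 0.14 for apex over base (limma, adjusted p = 0.00836) held without any 1 library. *SOX6* averaged 2.32 ± 0.57 FPKM in the apex and 2.79 ± 0.80 FPKM in the base and passed no test. The ratio of *SOX13* to *SOX5* was 4.17 ± 0.456 in the apex, 3.11 ± 0.795 in the middle and 1.44 ± 0.399 in the base (SD, n = 3). It is a description given without a p-value, since the pair was set together after both were called.

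Both SoxE members were lower in the apex. *SOX8* (chromosome 14, 5772749 to 5946808), a partner of *SOX9* and *SOX10* in the SoxE group, had 230.2, 148 and 169 FPKM in the apex, 271, 219.7 and 201 FPKM in the middle and 349.6, 254 and 265 FPKM in the base. Replicate 1 was the highest library in every region, and apex and base did not overlap. The log2 fold change of -0.68 ± 0.19 (limma, adjusted p = 0.0353) was lost without any 1 base library and without apex replicate 2 or 3 (adjusted p between 0.0578 and 0.125). With the replicate block its adjusted p was 0.00039 (limma), and the call held in all 3 block fits without a replicate number. The same locus is listed for *LMF1*, a microRNA gene and a gene with no symbol, so it is not that of *SOX8* alone. The library kit does not mark strand, so reads may be shared where these genes overlap, which the locus does not show.

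*SOX9* (chromosome 18, 8866456 to 8869366), which acts in cartilage and in the otic placode, averaged 57.6 ± 9.6 FPKM in the apex, 76.8 ± 8.5 FPKM in the middle and 83.4 ± 6.3 FPKM in the base. Its difference of -0.54 on the log2 scale passed the test (limma, adjusted p = 0.0179), but its ratio of 0.691 stayed inside 1.5-fold. *SOX8* was 3.14 ± 0.211 times as high as *SOX9* in the apex and 3.45 ± 0.355 times as high in the base (exact permutation test, two-sided p = 0.3). With 3 against 3 libraries this p cannot go below 0.1, so the test cannot tell whether the ratio changed. *SOX10*, the SoxE gene that marks Schwann cells and glia and that the rule left out, ran the other way, with 148 ± 8.5 FPKM in the apex and 70.5 ± 11.3 FPKM in the base.

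The other SOX rows passed no test without the block. *SOX4*, a SoxC factor of immature cells, averaged 22.5 ± 4.3 FPKM in the apex and 25.7 ± 0.60 FPKM in the base, and *SOX18*, an endothelial SoxF factor, averaged 11.5 ± 0.96 and 12.3 ± 0.41 FPKM in the same order. The SOX2OT rows span only 226 and 262 bases, and their levels moved by library. SOX2OT_EXON1 had 9.19, 8.71 and 9.19 FPKM in the apex, 4.0, 6.77 and 6.69 FPKM in the middle and 3.02, 9.96 and 2.24 FPKM in the base, where base replicate 2 was the highest of all. SOX2OT_EXON3 had 6.93, 13.2 and 7.67 FPKM in the middle and 4.19, 4.53 and 5.07 FPKM in the base. It was called higher in the middle with the block (limma, adjusted p = 0.0121) but not in the main fit (0.0550). Without the block it was also called when middle replicate 1 was left out (0.0459).

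T-box genes held the largest log2 fold change of the members tested, that of *TBX1*, on the scale with the added 1. This rank depends on the scale, which makes the changes of low genes too small. By the ratio of mean FPKM of apex over base, the lower genes *FOXN4*, *HES5* and *GATA6* ranked above *TBX1*. *TBX1* (chromosome 15, 932231 to 938578), required in the mouse for the growth of the otic vesicle and cochlea, had 83.5, 52.2 and 61.5 FPKM in the apex, 39.1, 35.0 and 37.4 FPKM in the middle and 14.0, 15.2 and 21.9 FPKM in the base. The 3 regions were fully separated, with the middle between the others, and apex replicate 1 stood highest. The log2 fold change was 1.88 ± 0.19 for apex over base (limma, adjusted p = 0.00105), a call that held without any 1 library. It was 1.10 ± 0.19 for middle over base (adjusted p = 0.0166), a call lost without base replicate 1 or 2 or middle replicate 3 (adjusted p between 0.0705 and 0.0749).

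*TBX18* (chromosome 3, 77511454 to 77533879), a factor of the otic mesenchyme in the mouse, had 159, 122 and 125 FPKM in the apex, 183, 156 and 140.4 FPKM in the middle and 267, 215 and 208 FPKM in the base. Apex and middle overlapped with each other and both lay below the base. Its log2 fold change of -0.76 ± 0.14 for apex over base (limma, adjusted p = 0.00760) held without any 1 library, and that of -0.52 ± 0.14 for middle over base missed the threshold (adjusted p = 0.0590). The ratio of *TBX1* to *TBX18* was 0.482 ± 0.050 in the apex, 0.235 ± 0.028 in the middle and 0.0764 ± 0.027 in the base (SD, n = 3). It is likewise given without a p-value, since the pair was set together after both were called. *TBX18* was lower in the apex, as was the sum of the mesenchyme markers. *TBX1* was higher there, as were the sums of the hair cell, supporting cell and Schwann cell and glia markers. The part of these cell types in the values of *TBX1* and *TBX18* was not tested.

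*TBX19* (chromosome 1, 84082887 to 84097141), known from the corticotroph cells of the pituitary, was low throughout, with 1.78, 1.30 and 1.28 FPKM in the apex, 0.993, 0.619 and 0.965 FPKM in the middle and 0.773, 0.626 and 0.770 FPKM in the base. All apex libraries were above the others, with a log2 fold change of 0.50 ± 0.15 and a ratio of mean FPKM of 2.01. Yet the call was just past the threshold (limma, adjusted p = 0.0470). It was lost without any 1 library other than middle replicate 2 (adjusted p between 0.0610 and 0.139), after quantile normalization (0.178), with a pseudocount of 0.1 (0.0504) and in a fit of the apex and base libraries alone (0.0637). *TBX19* reached a mean of 1 FPKM in the apex alone and was tested only through that region, which also limits what the call supports. *TBX2*, which controls inner hair cell fate in the mouse, peaked in the middle with 10.9, 11.2 and 11.4 FPKM, against 9.03, 8.44 and 8.32 FPKM in the apex and 7.66, 6.79 and 7.95 FPKM in the base. The middle libraries lay above all others, with an adjusted p of 0.0104 against the base and a ratio of 1.497, just under 1.5. *TBX3* averaged 12.8 ± 1.0 and 9.90 ± 1.1 FPKM in apex and base, *TBX15*, a factor of skeletal mesenchyme, 15.8 ± 2.0 and 13.9 ± 2.3 FPKM, and *TBX20* 7.42 ± 0.33 and 8.51 ± 0.93 FPKM. None of the 3 passed a test without the replicate block. With it, *TBX20* had an adjusted p of 0.0391 for middle over base (limma), at a ratio of 0.7645 inside 1.5-fold. *TBX2*, *TBX3* and *TBX20* were named after their values were seen.

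Forkhead genes were the largest family, with 21 of 29 tested. *FOXN4* (chromosome 15, 6732758 to 6747406), which specifies amacrine and horizontal cells in the mouse retina, had 1.54, 0.696 and 2.44 FPKM in the apex, 0.832, 0.465 and 1.09 FPKM in the middle and 0.122, 0.174 and 0.372 FPKM in the base. Replicate 3 was the highest library in every region, and the apex libraries differed from each other by more than the lowest differed from the base. Apex over base, it changed by 1.01 ± 0.27 on the log2 scale (limma, adjusted p = 0.0276). The call was lost without base replicate 1 or 2 or apex replicate 1 or 3 (adjusted p between 0.0741 and 0.0928) and after quantile normalization (adjusted p = 0.0625). As *FOXN4* reached a mean of 1 FPKM in the apex alone, it was tested only through that region, which limits what this call supports. *FOXF1*, a mesodermal factor named after its values were seen, averaged 1.34 ± 0.34 FPKM in the apex and 0.633 ± 0.20 FPKM in the base and missed the threshold (adjusted p = 0.0697).

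*FOXP2* (chromosome 1, 25908850 to 26098946), known for its part in speech in humans and song learning in birds, had the largest fall of the members. It had 4.38, 4.72 and 4.05 FPKM in the apex and 6.55, 5.43 and 4.28 FPKM in the middle, against 10.6, 9.95 and 8.64 FPKM in the base. No apex or middle library reached the lowest base library. The log2 fold change of -0.99 ± 0.14 for apex over base (limma, adjusted p = 0.00212) held without any 1 library, and that of -0.75 ± 0.14 for middle over base (adjusted p = 0.0189) was lost without base replicate 1 or 2 or middle replicate 3 (adjusted p between 0.0662 and 0.0802).

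Its relative *FOXP4* (chromosome 26, 4844452 to 4882773), a repressor of the same subfamily, had 23.4, 19.8 and 21.8 FPKM in the apex, 23.8, 22.8 and 22.1 FPKM in the middle and 35.1, 32.0 and 34.7 FPKM in the base. Spread within each region was small, and the base stood clear of both other regions. Limma gave a log2 fold change of -0.63 ± 0.07 for apex over base (adjusted p = 0.00153), a call that held without any 1 library. Against the base, the middle had an adjusted p of 0.00940 but a ratio of 0.675, short of the limit of 1.5-fold. *FOXP1*, the other member of the subfamily, averaged 13.8 ± 1.7 and 14.8 ± 1.5 FPKM in apex and base, and its libraries overlapped.

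Insulin and AKT signalling hold most FOXO proteins out of the nucleus. All 4 FOXO genes were lower in every apex library than in any base library, as were 22.0% of all genes tested. *FOXO3* (chromosome 3, 67450300 to 67533242) had 19.4, 14.9 and 17.0 FPKM in the apex, 25.2, 21.0 and 17.6 FPKM in the middle and 34.2, 29.8 and 25.2 FPKM in the base. Replicate 1 was the highest in each region, and the middle mean lay between the others. It was the only FOXO gene past the 1.5-fold limit, with a log2 fold change of -0.76 ± 0.16 (limma, adjusted p = 0.0102) that held without any 1 library. *FOXO1* and *FOXO6* had adjusted p of 0.0294 and 0.0454 with ratios of 0.686 and 0.727, and *FOXO4*, the highest of the 4 on average, had 32.2 ± 1.3 FPKM in the apex and 37.4 ± 0.98 FPKM in the base and did not pass (adjusted p = 0.111). *FOXO3* and *FOXO6* each share their listed locus with a gene with no symbol, so it may not be their own extent, and their reads may be shared. *FOXO1* and *FOXO6* were named after their values were seen.

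*FOXF2* (chromosome 2, 67156645 to 67161058), a factor of mesenchyme and pericytes, had the highest mean of the forkhead genes. It had 40.1, 27.7 and 31.9 FPKM in the apex, 41.6, 37.5 and 33.3 FPKM in the middle and 52.0, 46.8 and 51.4 FPKM in the base. Neither apex nor middle libraries reached the lowest base library. Its log2 fold change was -0.59 ± 0.13 (limma, adjusted p = 0.0148) and the ratio of 0.664 was just past the limit. Without base replicate 1 or apex replicate 3 the adjusted p missed the threshold (0.0581 and 0.0539), and without base replicate 3 or apex replicate 2 the ratio fell short of it (0.673 and 0.719), as it did after quantile normalization (0.676). *FOXL1*, a mesenchymal factor of the gut, had 1.78, 1.85 and 2.06 FPKM in the apex and 2.85, 3.07 and 4.12 FPKM in the base, and it was called lower with the replicate block (adjusted p = 0.0192) but not without it (adjusted p = 0.0519). *FOXJ2*, a widely expressed factor and among the 3 highest forkhead genes, showed no such difference, with 27.9 ± 2.6 FPKM in the apex, 27.8 ± 1.1 FPKM in the middle and 30.6 ± 1.8 FPKM in the base.

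Both GATA genes that were tested were higher in the apex (7.15% of all genes tested were), and *GATA4*, which acts in the heart, did not exceed 0.00535 FPKM. *GATA6* (chromosome 2, 102935684 to 102951602), a factor of heart and endoderm, had 2.14, 1.47 and 1.87 FPKM in the apex, 0.853, 0.553 and 0.882 FPKM in the middle and 0.502, 0.301 and 0.602 FPKM in the base. Every apex library was above every other, and middle and base overlapped. It had a log2 fold change of 0.94 ± 0.16 for apex over base (limma, adjusted p = 0.00525) and the call held without any 1 library. Its ratio of mean FPKM was 3.90, larger than on the log2 scale because of the added 1. Since *GATA6* reached a mean of 1 FPKM in the apex alone, it was tested only through that region, which limits what this call supports. *GATA5* (chromosome 20, 8211124 to 8221460), of the same subgroup, had 3.49, 2.98 and 2.48 FPKM in the apex, 1.65, 1.05 and 1.64 FPKM in the middle and 2.10, 1.10 and 1.49 FPKM in the base. Middle and base overlapped for it as well, with the middle mean at 0.926 and the apex mean at 1.91 times the base mean. Its log2 fold change of 0.65 ± 0.18 for apex over base (limma, adjusted p = 0.0367) was lost without base replicate 2 or 3, middle replicate 3 or any 1 apex library (adjusted p between 0.0503 and 0.117) and after quantile normalization (adjusted p = 0.132).

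**Figure D4:**
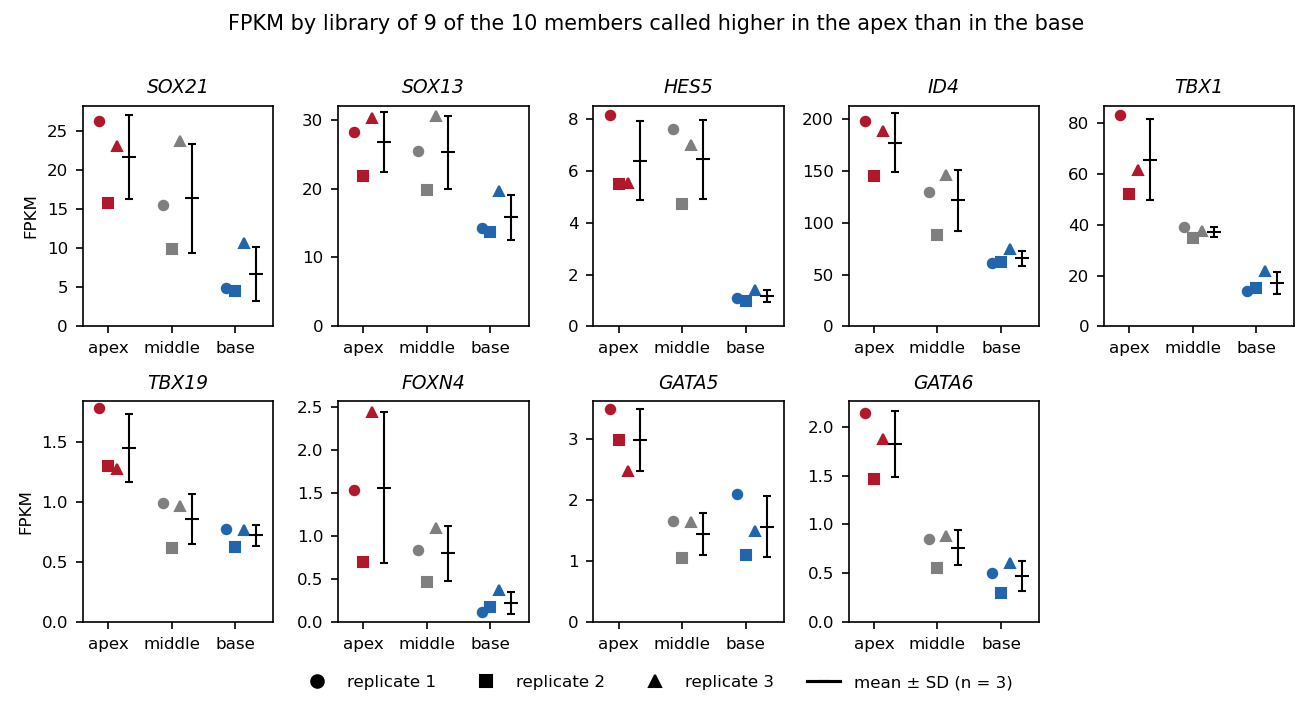
FPKM (y axis, linear, from 0) of 9 of the 10 members called higher in the apex than the base, in each apex, middle and base library (x axis), where circles, squares and triangles are replicates 1, 2 and 3 and bars are the mean ± SD (n = 3). Apex and base libraries are separated in all 9 shown. The middle lies near the apex for *HES5* and near the base for *GATA5* and *TBX19*.

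All 10 KLF genes were tested, and 2 were lower in the apex (4.66% of all genes tested), while 9 of the 10 had a log2 fold change below 0 (51.1% of all genes tested). *KLF3* (chromosome 4, 69980272 to 70000045), a repressor that works with CtBP, had 20.4, 17.7 and 22.0 FPKM in the apex and 19.2, 20.6 and 19.0 FPKM in the middle, against 30.9, 29.0 and 31.4 FPKM in the base. Apex and middle overlapped, with the base well above both. The log2 fold changes were -0.58 ± 0.08 for apex over base and -0.61 ± 0.08 for middle over base (limma, adjusted p = 0.00245 and 0.00940). Its ratio of 0.659 is close to the limit of 1.5-fold, and without base replicate 3 or apex replicate 2 it fell short of it (0.670 and 0.697), while without middle replicate 3 the adjusted p for middle over base was 0.0511.

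*KLF2* (chromosome 28, 4398876 to 4401204), which responds to blood flow in endothelial cells, had 28.0, 50.6 and 34.4 FPKM in the apex, 30.9, 38.1 and 34.7 FPKM in the middle and 50.3, 68.2 and 70.9 FPKM in the base. Apex replicate 2 was slightly above base replicate 1, so it was the only DEG between apex and base whose libraries overlapped. Within each replicate number the apex was below the base in 3 of 3. The log2 fold change of -0.76 ± 0.21 for apex over base (limma, adjusted p = 0.0330) was lost without base replicate 2 or 3 or apex replicate 1 or 3 (adjusted p between 0.0912 and 0.103) and in a fit of the apex and base libraries alone (0.0541). That of -0.84 ± 0.21 for middle over base (adjusted p = 0.0447) was lost without any 1 base or middle library or apex replicate 3 (adjusted p between 0.0531 and 0.136). With the replicate block the adjusted p was 0.00225 for apex over base and 0.00275 for middle over base (limma). Both calls held in all 3 block fits without a replicate number. The sum of endothelium and pericyte markers overlapped between apex and base. Of its 9 genes 0 were DEGs there, and 1 was a DEG between middle and base. The median log2 fold change of the 9 was -0.04 for apex over base and -0.11 for middle over base. The 1 DEG was the endothelial receptor gene *KDR*, which averaged 18.1 ± 2.2 FPKM in the apex and 14.8 ± 2.0 FPKM in the middle, against 24.4 ± 0.63 FPKM in the base. It passed the test in the apex with a ratio inside 1.5-fold (0.740, limma, adjusted p = 0.0245) and was a DEG in the middle (0.607, adjusted p = 0.0126). The part of endothelial cells in the values of *KLF2* was not tested.

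*KLF4*, a factor of epithelial differentiation, averaged 2.46 ± 0.44 FPKM in the apex, 2.33 ± 0.29 FPKM in the middle and 4.36 ± 1.5 FPKM in the base. With the replicate block it was called lower in the apex and in the middle (limma, adjusted p = 0.0406 and 0.0391). In the main fit without the block it was not (adjusted p = 0.0534 and 0.0697), but after quantile normalization it was (0.0193 and 0.0376). *KLF7* and *KLF15*, named after their values were seen, passed the test between apex and base with ratios of 0.722 and 0.763, inside 1.5-fold (adjusted p = 0.0364 and 0.0418). *KLF13* and *KLF10*, among the 3 highest of the family, did not differ beyond their spread, with 37.3 ± 2.1 and 39.2 ± 8.1 FPKM for *KLF13* and 23.4 ± 0.46 and 24.5 ± 1.7 FPKM for *KLF10* in apex and base. *KLF10* is known to be induced by TGF-beta. The single KLF gene with a positive value, *KLF11*, had 11.6, 11.5 and 12.8 FPKM in the apex and 9.22, 7.86 and 10.9 FPKM in the base and just missed the test (adjusted p = 0.0537).

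**Figure D5:**
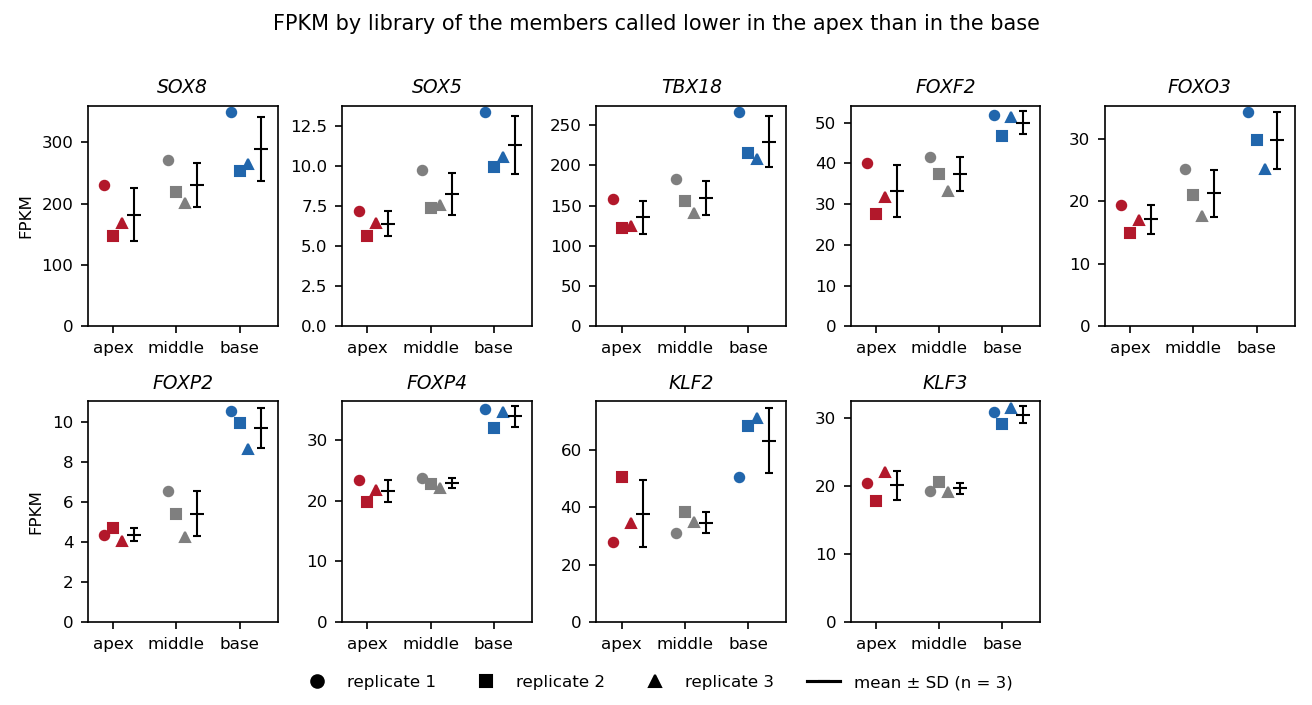
FPKM (y axis, linear, from 0) of the 9 members called lower in the apex than the base, in each apex, middle and base library (x axis), where circles, squares and triangles are replicates 1, 2 and 3 and bars are the mean ± SD (n = 3). For *FOXP4*, *KLF2* and *KLF3* the apex and the middle are at about the same level, and for *SOX8*, *SOX5*, *TBX18* and *FOXO3* the middle mean lies between the others.

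Of the 55 members tested, 13 had an adjusted p of at least 0.2 in all 3 comparisons and apex and middle means between 0.8 and 1.2 times the base mean. They were the SOX genes *SOX4* and *SOX18*, the forkhead genes *FOXJ2*, *FOXK1*, *FOXK2*, *FOXL2* and *FOXN2*, both FOXRED genes, *TBX15*, *ID2*, *KLF10* and *KLF13*. The rule set no limit on apex over middle. *FOXL2* and *TBX15* had ratios of 1.32 and 1.34 there, with every apex library above every middle library (limma, adjusted p = 0.473 and 0.427). With 3 libraries per region, a difference in any of the 13 genes may have gone undetected. The share of all genes tested that met this rule was not computed, so the count of 13 shows nothing particular to the members. *FOXK2* averaged 20.6 ± 2.2 FPKM in the apex and 21.1 ± 1.4 FPKM in the base, and *FOXRED1*, a mitochondrial oxidoreductase, averaged 17.0 ± 0.66 and 17.8 ± 0.72 FPKM in the same order.

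Between middle and base, 7 members were DEGs, which was 12.7% of the 55, against 4.39% of all genes tested (2.93% higher and 1.46% lower in the middle). *HES5*, *ID4* and *TBX1* were among those higher, and *FOXP2*, *KLF2* and *KLF3* were lower. With the replicate block, the number higher in the middle was 7, with *SOX13*, *SOX21* and SOX2OT_EXON3 added, and the share of all genes called so was 7.63%. Lower in the middle with the block were 4, with *KLF4* added (2.25% of all genes). The median log2 fold change of the members was -0.135, and that of all genes was -0.005. Without middle replicate 3, which was the highest middle library in hair cell and supporting cell markers, 2 members were called higher and 0 lower, without base replicate 2 there were 2 higher, and without base replicate 1 there was 1 lower. This comparison shares its base libraries with that of apex and base, so the calls common to both are no separate evidence.

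Between apex and middle, no member was a DEG by limma without the block, against 0.0613% of all genes tested (8 genes). At an unadjusted p under 0.05 there were 11 of 55 members (20.0%) and 9.0% of all genes, 9 of the 11 higher in the apex. Those 9 include *FOXF1*, *GATA6* and *TBX19*, which were tested only through their apex level. The split by direction over all genes was not computed, so that of the members shows nothing particular to them. *TBX1* had 65.8 ± 16.1 FPKM in the apex and 37.2 ± 2.1 FPKM in the middle without overlap (limma, adjusted p = 0.218). With the block 2 members were DEGs, both higher in the apex, where the share of all genes called higher was 1.43%. They were *GATA6*, with a ratio of 2.39 (adjusted p = 0.0311, and 0.209 without the block), and *GATA5*, with a ratio of 2.06 (adjusted p = 0.0376, and 0.247 without the block). Both calls were lost in each of the 3 block fits without a replicate number (limma, adjusted p between 0.106 and 0.252 for *GATA6* and between 0.123 and 0.256 for *GATA5*). For both genes every apex library was above every middle library, while middle and base overlapped. *GATA6* reached a mean of 1 FPKM in the apex alone, so it was tested only through a region compared here, which limits what its call supports.

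Along the axis, 9 members were Up-trend genes, which were DEGs in at least 1 comparison with apex over base at least 1.5 and no step against the direction beyond 0.85, and 9 were Down-trend genes by the mirrored rule (7.03% and 4.61% of all genes tested). Up-trend genes were *SOX21*, *SOX13*, *HES5*, *ID4*, *TBX1*, *TBX19*, *FOXN4*, *GATA5* and *GATA6*, and the Down-trend genes were the 9 members called lower in the apex. Of the Up-trend genes, *FOXN4*, *GATA6* and *TBX19* were tested only through their apex level. Both trend classes allow a flat step, and the members differed in where the change lay. The mean of the middle was 5.54 times that of the base for *HES5* and the apex was 0.990 times the middle, so its difference lay between base and middle. For *GATA5* the same ratios were 0.926 and 2.06, and for *TBX1* they were 2.18 and 1.77.

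An exact permutation test of the order of the regions (Jonckheere-Terpstra statistic, two-sided, over 1680 assignments of the 9 libraries) used ranks alone. *TBX1*, which increased toward the apex, and *SOX5*, which decreased, had every library in the order of the regions and so the smallest possible p of 0.00119, which 4.55% of all genes tested reached. *GATA6*, *ID4* and *KLF11* followed with an exact p = 0.00357 (adjusted p = 0.0412 over all genes tested), all with levels that increased toward the apex. These 5 of the 55 members passed after adjustment, as did 1132 of all 13045 genes tested. Of these members, *GATA6* was tested only through its apex level. Within replicate numbers, 216 assignments are possible and the exact p cannot go below 0.00926. At that smallest p the adjusted p was 0.0516, so no gene tested passed, the members included. This outcome shows nothing particular to the members.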

How the data were processed

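RNA-seq libraries of apex, middle and base of the basilar papilla (3 replicates each, 9 libraries, post-hatch day 1) were grouped by their titles. The authors made libraries from oligo-dT-enriched mRNA with an Illumina TruSeq RNA kit, aligned paired reads of 101 bp to galGal5 with STAR 2.5.4b (up to 3 mismatches per read, Ensembl release 91) and ran Cuffdiff 2.2.1, whose FPKM values for each library they deposited. The scaling between libraries is not given in the sources used here. The paper gives read pairs per replicate as a range, and the table states no fragment numbers. How far depth limits low genes in each library was therefore not computed. Gene symbols are those of the table, and loci are galGal5 with the first base counted as 1, over exons and introns. For 7 members, among them *SOX8*, *FOXO3* and *FOXO6*, the same locus is listed for other genes too. For these the interval is that of the shared entry and not of the gene alone.

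limma 3.58.1 (R 4.3.3) was applied to log2(FPKM + 1) of the 13045 genes that reached a mean of 1 FPKM in some region, with a region term, an intensity trend and all 9 libraries. Tests were two-sided with Benjamini-Hochberg adjustment over all these genes, and the added 1 makes log2 fold changes of low genes too small. The study's own test in Cuffdiff needs alignments and was not run. The thresholds and trend rules followed the study's methods, which name no block. Libraries with the same replicate number deviated together from their region means (correlations of 0.368 to 0.660, 9 pairs, and of -0.520 to 0.151 in the 18 other pairs). The pairing rests on numbers in the sample titles, and the methods imply, without stating it, that such libraries share their 4 chickens. Where a fit with replicate number as a block changed a call, its value is given beside the main one.

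Members named in the text were the DEGs, those called with the block alone and the 3 highest of each family, and at most 5 DEGs of each pathway list were named. Among these, 1 member and a few listed genes are counted but not reported here by name. The members, the marker lists and the pathway lists were chosen with earlier results of these data known. Alternatives were a pseudocount of 0.1, no filter, a filter of 1 FPKM in 6 libraries, quantile normalization, median-ratio scaling, no intensity trend, the block, a fit of the 6 libraries compared, other fold limits, and fits without each library or replicate number. Block fits without a replicate number were added after the data were seen. The fit was tested on simulated data. No sequence of a member was printed, since none was given for galGal5.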

Additional observations from a re-analysis of the deposited data

How the results depend on the processing

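The counts in this section are of members alone, without the share of all genes called under the same setting. That share can move too, as with the block for higher in the middle than in the base (2.93% to 7.63%). The counts therefore do not set the members against all genes. Settings that kept every library of the regions compared moved few of the counts of DEGs by over 1.5 times. Without a fold limit 14 members were lower in the apex than the base, and with a limit of 2-fold only 1 was, 0 were lower in the middle than in the base and 1 was a Down-trend gene. Of the 19 calls between apex and base, 14 held under each such setting with the 1.5-fold limit, the exceptions being *FOXN4*, *GATA5*, *TBX19*, *FOXF2* and *KLF2*. Of the 7 calls between middle and base, 4 did. In a fit of middle and base alone the adjusted p was 0.0529 for *FOXP2* and 0.0632 for *ID4*, and for *KLF2* it was 0.0607 with no filter on low values and 0.0549 with no intensity trend. The cause was not tested.

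With the replicate block, which uses the pairing of same-numbered libraries, 7 members were higher in the middle than in the base and 2 were higher in the apex than in the middle, while 10 were higher and 11 lower in the apex than the base. It changed no call but those of *SOX13*, *SOX21*, SOX2OT_EXON3, *KLF4*, *FOXL1*, *GATA5* and *GATA6* given in the text. With the block and without replicate number 1, 2 or 3, 8 members were higher in the middle in each case, and 6 were lower in the middle without number 2. In these fits 14 of the 19 calls between apex and base held all 3 times, the exceptions being *FOXN4*, *GATA5*, *TBX19*, *FOXF2* and *KLF3*. All 7 calls between middle and base held all 3 times, while neither call between apex and middle held in any.

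Leaving out 1 library at a time gave 5 to 10 members higher and 5 to 10 lower in the apex than the base, 2 to 6 higher and 0 to 4 lower in the middle than in the base, 0 to 0 in either direction between apex and middle, 4 to 9 Up-trend and 5 to 10 Down-trend genes. Without the block and without number 1 as a whole, 2 members were higher in the apex, 2 were Up-trend genes and 0 passed in either direction between middle and base. Without number 2, the one with the highest neuron markers, 4 were lower in the apex and 4 were Down-trend genes. Without number 3, 5 were higher and 4 lower in the apex, with 5 Up-trend and 4 Down-trend genes, and 0 passed in either direction between middle and base. These fits keep 2 libraries per region and so have fewer samples. Of the log2 fold changes of the named members, only that of *KLF13* between apex and base changed sign, with values between -0.22 and 0.078 when 1 library was left out (0.078 without base replicate 3) and 0.12 without number 3 as a whole, with or without the block, and it was not called in any of them. Quantile normalization and median-ratio scaling moved the median log2 fold change of all genes by less than 0.1. FPKM without fragment numbers gives no counting error, which bears most on *FOXN4*, *GATA5*, *GATA6*, *TBX19* and the short SOX2OT rows.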
